A study of Mus musculus with 7 samples.

Results

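Lysosome and autophagy genes were measured in the liver of control mice and of mice given lipopolysaccharide (LPS), a component of the bacterial outer membrane. The members were chosen by gene symbol from known roles in autophagy initiation, conjugation of the ATG8 proteins, cargo recognition, control by the TFEB factors, the lysosomal membrane, lysosomal hydrolysis and the proton pump. Earlier results of these data were known when they were chosen. The members are 47 of the 56691 genes counted. All 47 had enough counts to be tested, among 13683 genes tested in all.

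Male C57BL/6J mice were bought at 8 weeks of age and housed for 2 weeks. The LPS mice received 10 mg/kg LPS by intraperitoneal injection as a model of septic acute liver injury, and liver was taken after 24 h. What the control mice received is not given in the sources used here. RNA of whole liver was sequenced as poly(A)-selected, strand-specific libraries for 4 control and 3 LPS mice, and mice that also received sulforaphane were not analysed here.

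Autophagy encloses cytoplasm in a double membrane, the autophagosome, whose growth depends on a kinase complex, a lipid kinase complex and the attachment of small ATG8 proteins to lipid. Autophagosomes fuse with lysosomes, where a proton pump keeps the lumen acid and cathepsins and other hydrolases degrade the content. In liver this route supplies amino acids and removes damaged mitochondria, and macrophages of the liver also use lysosomes to digest what they engulf.

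The libraries held 14991022, 15096573, 15721944 and 18584140 counts in control replicates 1 to 4, and 20500391, 17095607 and 17821331 counts in LPS replicates 1 to 3. Mitochondrial genes took 23.7, 14.6, 7.48 and 8.96% of the counts in control and 6.45, 3.83 and 3.94% in LPS. Their share was thus higher in every control sample than in every LPS sample, and highest in control 1. LPS 2 and LPS 3 were much more alike than any other replicates. The SD of the log2 ratio between them, over the 1729 genes with the most counts, was 0.10. The other pairs within a group had SDs of 0.29 to 0.58, each over its own set of 1590 to 2070 genes. The counts of LPS 2 and LPS 3 differed by a chi-square of 4.69 per gene, over 11254 genes. This is more than sampling noise gives, but it does not show whether they come from 2 mice. Both were kept as samples, since the labels list them as separate samples. With LPS 2 and LPS 3 summed into 1 sample, 12 members (25.5%) passed the test in place of 17 (36.2%), and 17.9% of all genes tested did in place of 26.3%. With mitochondrial genes left out, the same 17 members were called. The median log2 fold change of the members was 0.16 in the reported fit. It was 0.14 with LPS 2 and LPS 3 summed and 0.15 with mitochondrial genes left out. Apart from these fits, the part of this likeness and of the mitochondrial share in the changes was not tested.

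Levels are given as CPM, counts scaled to library size with trimmed mean of M values (TMM) factors. A gene was called when its p-value from edgeR's quasi-likelihood test, adjusted over all 13683 genes by the Benjamini-Hochberg method, was below 0.05. Of all genes tested, 26.3% were called, 13.3% higher and 13% lower in LPS. Of the 47 members, 12 were called higher (25.5%) and 5 lower (10.6%). The median log2 fold change was 0.16 over the members and -0.01 over all genes tested. The 21 lysosomal members (membrane, hydrolases and pump) had 8 calls higher and 0 lower, with a median of 0.34. For the 0 calls lower, DESeq2 also gave 0, and 0 had an unadjusted p below 0.05 with a lower level. The 24 autophagy members (initiation, conjugation and cargo) had 4 calls higher and 5 lower, with a median of 0.03. Without LPS 2, their calls higher were 0 in initiation, 2 in conjugation and 0 in cargo. The same counts came with total counts in place of TMM factors. Calls that were also past 1 on the log2 scale numbered 5 higher and 1 lower among the members, beside 7.81% higher and 7.31% lower of all genes.

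Every LPS sample lay above every control sample for 17 members and below for 8, beside 18.1% and 17.4% of all genes. Leaving out single samples moved the counts of calls. The members called lower were 3 without LPS 1 and 3 without LPS 3, and the members called higher were 8 without LPS 2. Calls over all genes tested moved as well, from 1824 higher and 1773 lower to 1301 and 1146 without LPS 2, 1290 and 1159 without LPS 3, and 1585 and 1550 without LPS 1.

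The 17 calls were not equally firm. The same 10 members, namely Atg3, Map1lc3b, Gabarap, Gabarapl1, Cd63, Ctsc, Ctsl, Ctsz, Lgmn and Atp6v1b2, stayed called in the same direction in every one of 16 other fits, which included each sample left out in turn. The other 7 lost the call in at least 1 fit and are named as such. With total counts in place of scaling factors, the median of all genes moved to -0.13, and higher genes made up 39.6% of the calls against 50.7% with TMM factors. With total counts, 8 members were called higher and 5 lower, and Atg12, Atg13, Gusb and Psap were no longer called.

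**Figure D1:**
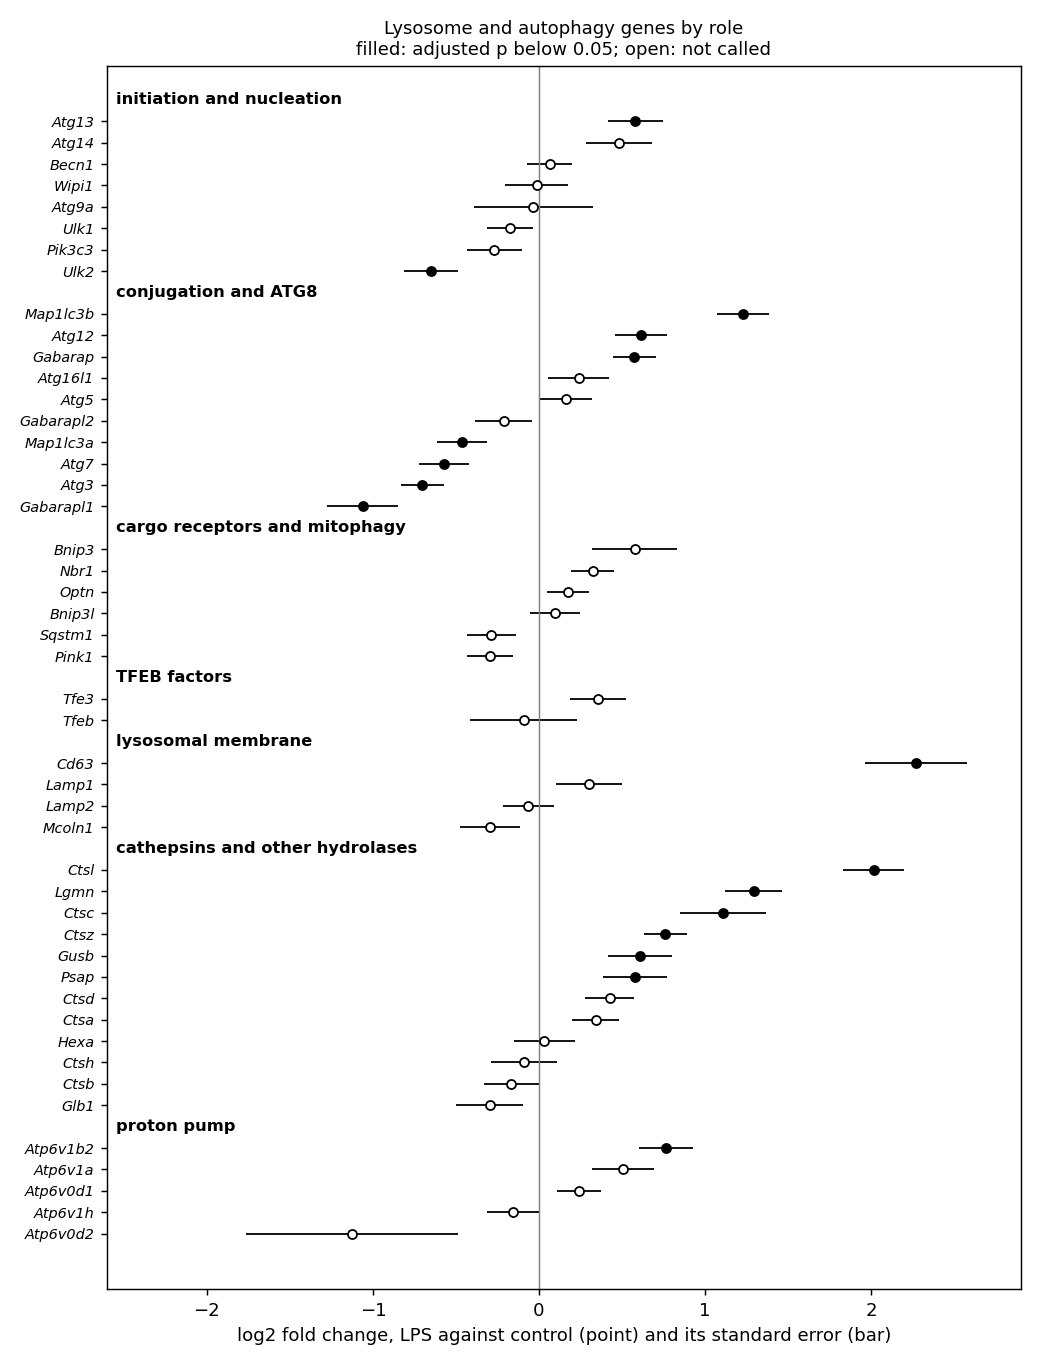
Log2 fold change of each of the 47 members in LPS against control (x axis, point) with its standard error (bar), grouped by role on the y axis. Filled points passed the adjusted p threshold of 0.05 and open points did not; the calls include 6 of the 12 hydrolases, all higher, and 7 of the 10 conjugation and ATG8 genes, 3 higher and 4 lower.

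Initiation and nucleation of the autophagosome was represented by 8 members, of which 1 was called higher and 1 lower, with a median log2 fold change of -0.02. Ulk2, a kinase of the ULK1 family that starts autophagy, was at 63.9, 65.8, 96 and 74.4 CPM in control replicates 1 to 4 and 49.5, 49.9 and 44 CPM in LPS replicates 1 to 3. All LPS values lay below all control values, and control 3 was the highest sample. Ulk2 fell by 0.65 on the log2 scale (SE 0.16, adjusted p = 0.0113, edgeR's quasi-likelihood test). The call was lost without LPS 3, at -0.59, and with LPS 2 and LPS 3 summed, at -0.63. Atg13, the subunit that binds ULK kinases into 1 complex, was at 20.6, 23.1, 28.9 and 28.2 CPM in control and 32, 43.4 and 37.9 CPM in LPS. No LPS sample overlapped the control samples, and LPS 1 was closest to them. Atg13 rose by 0.58 (SE 0.17, adjusted p = 0.0209, edgeR's quasi-likelihood test). Its call was lost without control 2 (0.53), without LPS 2 (0.47), without LPS 3 (0.58) and with LPS 2 and LPS 3 summed (0.54), all on the log2 scale. The other 6 members, Ulk1, Becn1, Pik3c3, Atg14, Atg9a and Wipi1, were not called and had log2 fold changes from -0.27 to 0.48. Of these, Atg14 was called without LPS 1, at 0.63. Ulk1, the founding kinase of the family, is described after its values were seen. It was at 42.2, 36.9, 39.4 and 34.2 CPM in control and 30.01, 36.8 and 34.7 CPM in LPS, and these ranges overlapped.

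The conjugation and ATG8 genes moved in both directions. Of 10 members, 3 were called higher and 4 lower (2 lower without LPS 1), and the median log2 fold change was -0.02. Among the 5 genes for ATG8 proteins, which are attached to the growing membrane, 2 were called higher and 2 lower. Map1lc3b (ENSMUSG00000031812), which encodes LC3B, was at 58.7, 63, 69.5 and 82.6 CPM in control and 136, 171 and 174 CPM in LPS. The groups were apart, and LPS 1 was the lowest LPS sample. Map1lc3b rose by 1.23 on the log2 scale, 2.34-fold (SE 0.16, adjusted p = 0.000101, edgeR's quasi-likelihood test). Gabarapl1 (ENSMUSG00000030161), another ATG8 gene, went the other way, from 175, 241, 364 and 306 CPM in control to 127, 128 and 135 CPM in LPS. The LPS samples were close together below all control samples, while the control samples were widely spread, with control 1 the lowest. Gabarapl1 fell by 1.06 on the log2 scale (SE 0.22, adjusted p = 0.00307, edgeR's quasi-likelihood test). Without control 3 its log2 fold change was -0.89, no longer past 1 but still called.

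Gabarap, the gene after which this ATG8 branch is named, was at 149, 157, 156 and 146 CPM in control and 209.5, 229 and 241 CPM in LPS. Control samples differed little from each other and all lay below the LPS samples. Gabarap rose by 0.57 (SE 0.13, adjusted p = 0.00555, edgeR's quasi-likelihood test). Map1lc3a, for LC3A, was at 23, 29.4, 23.7 and 23.3 CPM in control and 18.5, 17.1 and 18.5 CPM in LPS. It fell by 0.46 (adjusted p = 0.0383, edgeR's quasi-likelihood test) with no overlap, and it is described after its values were seen, to complete the ATG8 genes. Its call was among the least firm, kept in 7 of 16 other fits, and lost without control 2 (-0.39), control 4 (-0.50), LPS 1 (-0.48), LPS 2 (-0.42) or LPS 3 (-0.48). The ATG8 gene Gabarapl2, also described after its values were seen, was not called, with 56.1, 51.1, 58.3 and 50.3 CPM in control and 36.6, 59.8 and 43.3 CPM in LPS. Summed over the 5 ATG8 genes, the level was 462, 541, 672 and 608 CPM in control and 528, 605 and 612 CPM in LPS, and these sums overlapped.

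Of the enzymes that attach ATG8 proteins to lipid, Atg3, the E2-like enzyme, was at 81.8, 76.2, 89.2 and 89.7 CPM in control and 52.2, 51.2 and 51.9 CPM in LPS. The LPS values were almost equal and well below the lowest control value. Atg3 fell by 0.70 on the log2 scale (SE 0.13, adjusted p = 0.00164, edgeR's quasi-likelihood test). Atg7, the E1-like enzyme that acts before Atg3, was at 29.1, 29.4, 29.97 and 29.5 CPM in control and 16.2, 22.5 and 20.9 CPM in LPS. Control samples were nearly the same, and LPS 1 was the lowest sample. Atg7 fell by 0.57 (SE 0.15, adjusted p = 0.0144, edgeR's quasi-likelihood test), and the call was lost without LPS 1, at -0.44. Atg12, the ubiquitin-like protein that is joined to ATG5, was at 17.5, 25, 23.7 and 22.8 CPM in control and 31.3, 38.3 and 32.9 CPM in LPS. The groups did not overlap, and control 1 was the lowest sample. Atg12 rose by 0.62 (SE 0.16, adjusted p = 0.0121, edgeR's quasi-likelihood test). Without LPS 2 the call was lost, at 0.53, and also with total counts, at 0.49. Its partners Atg5 and Atg16l1 were not called, with log2 fold changes of 0.16 and 0.24.

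Cargo receptor and mitophagy genes had 0 calls by edgeR's quasi-likelihood test and 0 by DESeq2, among 6 members with a median log2 fold change of 0.14. At an unadjusted p below 0.05 there were 2 members, Nbr1 and Bnip3. Nbr1, a receptor for ubiquitin-tagged cargo, had the smallest p of the group. It was at 160.0, 153, 175 and 177 CPM in control and 201, 218 and 206 CPM in LPS. The LPS samples lay above all control samples, and the log2 fold change was 0.32 (SE 0.13, adjusted p = 0.0886, edgeR's quasi-likelihood test). Sqstm1, which encodes the receptor p62, was at 228, 265, 313 and 291 CPM in control and 214, 229.8 and 231 CPM in LPS. The groups overlapped at control 1, and the log2 fold change was -0.29 (SE 0.15, adjusted p = 0.18, edgeR's quasi-likelihood test). Bnip3, a mitophagy receptor, is described after its values were seen because 1 sample set its mean. It was at 104, 131, 136 and 155 CPM in control and 307, 142 and 139 CPM in LPS. LPS 1 stood far above LPS 2 and LPS 3, which were inside the control range. The log2 fold change of Bnip3 was 0.58, and 0.10 without LPS 1. It was called only in the fit with no filter on low counts. Optn, Bnip3l and Pink1 were not called, with log2 fold changes of 0.17, 0.10 and -0.29. A pseudogene of Bnip3l had 9, 23, 38 and 30 counts in control and 78, 25 and 47 counts in LPS. The handling of reads that match both copies is not given in the sources used here, so the split between them is uncertain.

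The TFEB factors, which switch on many lysosomal genes, were both not called. Tfeb was low, at 4.45, 4.54, 2.62 and 2.75 CPM in control and 3.68, 2.9 and 3.48 CPM in LPS. These ranges overlapped, and the log2 fold change was -0.09 (SE 0.32, adjusted p = 0.87, edgeR's quasi-likelihood test). Tfe3 was at 15, 18.9, 20.1 and 17.7 CPM in control and 20.5, 27.5 and 20.9 CPM in LPS. All LPS samples were above all control samples by a small margin, and the log2 fold change was 0.36 (SE 0.17, adjusted p = 0.141, edgeR's quasi-likelihood test). At an unadjusted p below 0.05, 0 of these 2 genes passed, and DESeq2 called 0. RNA counts do not show where these proteins are in the cell.

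Of the 4 lysosomal membrane genes, 1 was called. Cd63 (ENSMUSG00000025351), a tetraspanin of late endosomes and lysosomes, was at 10.1, 4.73, 4.39 and 5.85 CPM in control and 43.5, 26.1 and 20.6 CPM in LPS. Every LPS sample was above every control sample, and LPS 1 was the highest. Cd63 rose by 2.27 on the log2 scale, 4.82-fold (SE 0.31, adjusted p = 0.000147, edgeR's quasi-likelihood test). With all samples this was the largest rise among the 47 members, but without LPS 1 it was 1.9, below Ctsl at 2.19. A pseudogene of Cd63 had 5, 2, 3 and 5 counts in control and 36, 22 and 25 counts in LPS. As for Bnip3l, the split of reads between the copies is uncertain. Lamp1, a major glycoprotein of the lysosomal membrane, was at 359.6, 426, 639.7 and 506 CPM in control and 489.9, 664 and 633 CPM in LPS. The groups overlapped, and the log2 fold change was 0.30 (SE 0.20, adjusted p = 0.298, edgeR's quasi-likelihood test). Lamp2 and the calcium channel gene Mcoln1 were not called, with log2 fold changes of -0.06 and -0.30.

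Cathepsins and other hydrolases held 6 called members of 12, all higher in LPS, with a median log2 fold change of 0.50. With total counts in place of TMM factors, 4 were called higher and 0 lower. Ctsl (ENSMUSG00000021477), the cysteine protease cathepsin L, was at 639, 662, 592 and 728 CPM in control and 1976, 3045 and 2938 CPM in LPS. The lowest LPS sample, LPS 1, was still far above the highest control sample. The mean was 655 ± 56.6 CPM in control (SD, n = 4) and 2653 ± 589 CPM in LPS (SD, n = 3). Ctsl rose by 2.02 on the log2 scale, 4.05-fold (SE 0.18, adjusted p = 5.03e-06, edgeR's quasi-likelihood test), and stayed between 1.91 and 2.19 whichever sample was left out. Lgmn (ENSMUSG00000021190), which encodes legumain, a protease that cuts after asparagine and processes cathepsins, was at 25.7, 30.6, 34.3 and 32.7 CPM in control and 96.2, 64.5 and 65.7 CPM in LPS. Here LPS 1 was the highest sample, and no LPS sample overlapped control. Lgmn rose by 1.29, 2.45-fold (SE 0.17, adjusted p = 0.000131, edgeR's quasi-likelihood test). Ctsc (ENSMUSG00000030560), cathepsin C, which activates serine proteases of immune cells, was at 29.5, 47.4, 84.1 and 53.5 CPM in control and 125, 112 and 109 CPM in LPS. Control samples were widely spread, and control 3 came closest to the LPS samples. Ctsc rose by 1.11 (SE 0.26, adjusted p = 0.00731, edgeR's quasi-likelihood test). Without control 1 its log2 fold change was 0.90, still called but no longer past 1.

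Ctsz, the carboxypeptidase cathepsin Z, was at 153, 159, 151 and 131 CPM in control and 256, 249 and 250.2 CPM in LPS. The LPS samples were within a few CPM of each other and all above control. Ctsz rose by 0.76 (SE 0.13, adjusted p = 0.000937, edgeR's quasi-likelihood test). Gusb, the glucuronidase, was at 13.2, 18.3, 23.2 and 22.8 CPM in control and 29.6, 27.2 and 32 CPM in LPS, without overlap. Gusb rose by 0.61 (SE 0.19, adjusted p = 0.0327, edgeR's quasi-likelihood test). Psap, the precursor of the saposins that help degrade sphingolipids, is described after its values were seen. It was at 175, 239, 315 and 289 CPM in control and 333, 409 and 397 CPM in LPS, with a log2 fold change of 0.58 (adjusted p = 0.0421, edgeR's quasi-likelihood test). The groups did not overlap, and control 1 was the lowest sample. Both calls were lost without control 2 (0.57 for Gusb, 0.54 for Psap), without LPS 2 (0.67 and 0.53) and without LPS 3 (0.55 and 0.55). With LPS 2 and LPS 3 summed they were lost too (0.62 and 0.54). Gusb was also lost without LPS 1 (0.61), and Psap without control 1 (0.43).

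Ctsd, the aspartic protease cathepsin D, was at 94.1, 113, 124 and 128 CPM in control and 140.4, 166 and 158 CPM in LPS. All LPS samples were above all control samples. The log2 fold change was 0.43 (SE 0.15). The adjusted p by edgeR's quasi-likelihood test was just above the threshold of 0.05, so Ctsd was not called. It was called in 4 of 16 other fits, among them DESeq2 and the fit without control 3 (0.46). Ctsb, cathepsin B, was at 317, 335, 463 and 374 CPM in control and 377, 305 and 314 CPM in LPS. These ranges overlapped, and the log2 fold change was -0.17 (SE 0.17, adjusted p = 0.512, edgeR's quasi-likelihood test). The other 4 hydrolases, Ctsa, Ctsh, Hexa and Glb1, were not called, with log2 fold changes of 0.34, -0.09, 0.03 and -0.30.

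The summed level of the 7 cathepsin genes was 1461, 1606, 1743 and 1734 CPM in control and 3179, 4175 and 4084 CPM in LPS. Ctsl took 43.7, 41.2, 34.0 and 42.0% of that sum in control and 62.2, 72.9 and 72.0% in LPS. Without Ctsl the sum was 822, 944, 1151 and 1006 CPM in control and 1203, 1130.0 and 1145 CPM in LPS. Without Ctsl, control 3 overlapped LPS.

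The proton pump was represented by 5 members, of which 1 was called, with a median log2 fold change of 0.24. Atp6v1b2, a subunit of the part that hydrolyses ATP, was at 21.6, 26.2, 34.1 and 28.9 CPM in control and 45.4, 44.5 and 51.3 CPM in LPS. The groups did not overlap. Atp6v1b2 rose by 0.76 (SE 0.16, adjusted p = 0.00409, edgeR's quasi-likelihood test). Its partner Atp6v1a was not called, with a log2 fold change of 0.51, but was called without control 4, at 0.66. Atp6v0d1 and Atp6v1h were not called either, at 0.24 and -0.16. Atp6v0d2 is described after its values were seen. At 2.69, 2.08, 0.61 and 1.06 CPM in control and 0.322, 0.965 and 0.933 CPM in LPS, it rested on 7 to 38 counts per sample, and its log2 fold change of -1.13 (SE 0.64) was not called.

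**Figure D2:**
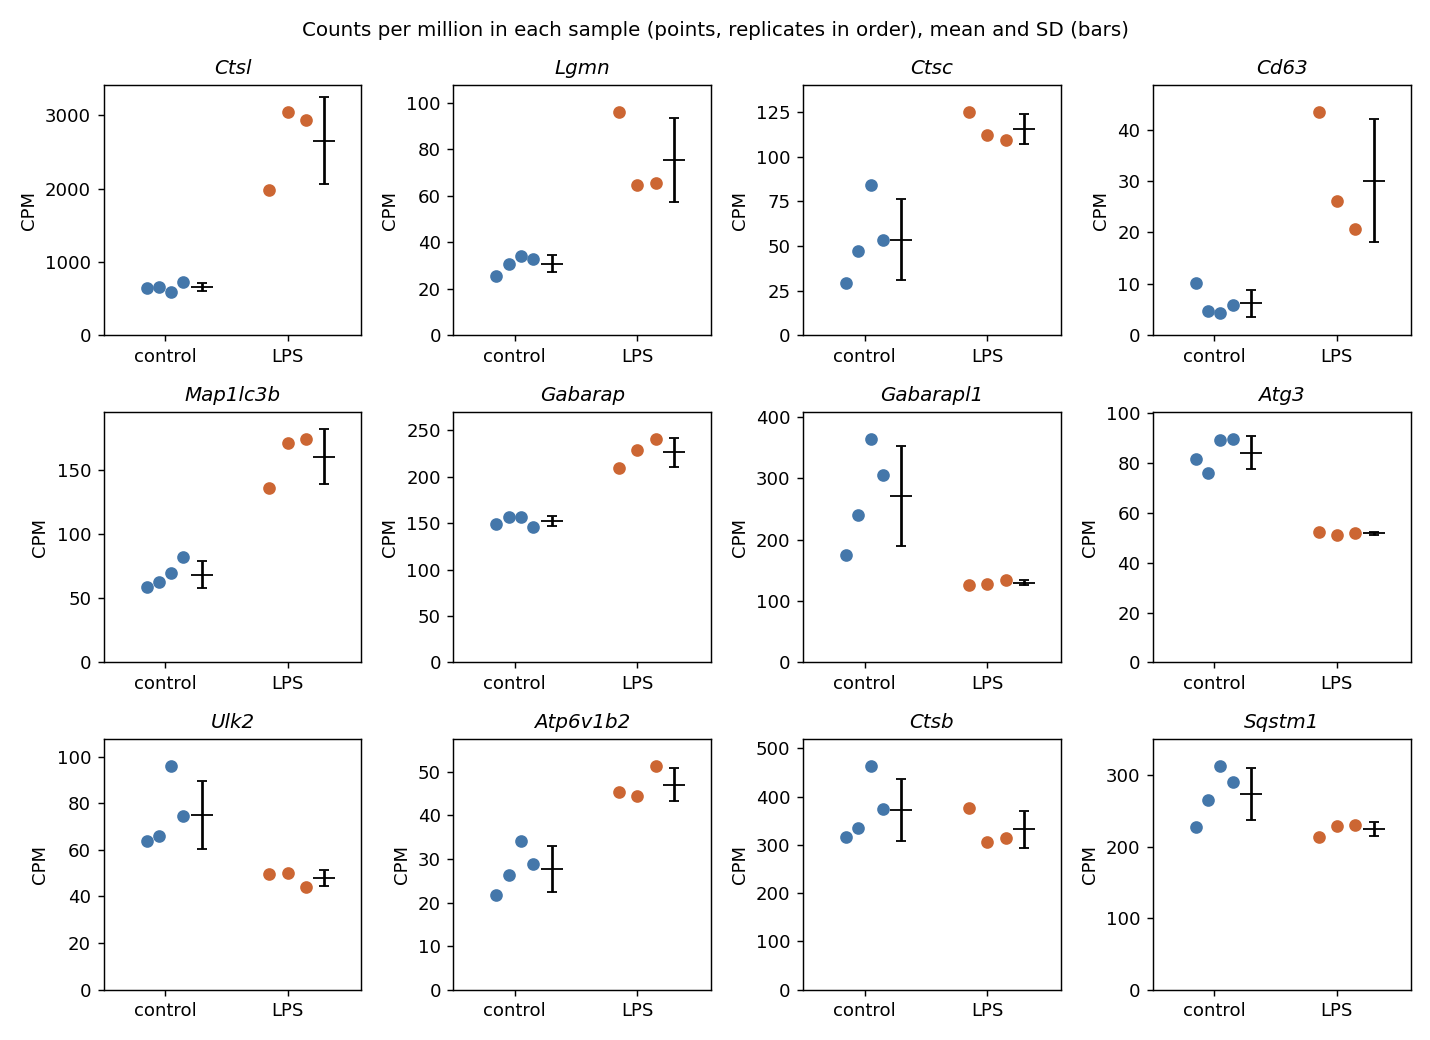
CPM (y axis, from 0) of 12 members in each of 4 control samples (blue points) and 3 LPS samples (orange points), with the mean and SD of each group as a bar. The groups are apart for Ctsl, Lgmn, Ctsc, Cd63, Map1lc3b, Gabarap, Gabarapl1, Atg3, Ulk2 and Atp6v1b2 and overlap for Ctsb and Sqstm1.

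Levels between genes were compared as CPM per kb of exon, with the length taken over all annotated exons of the gene in any transcript. This length was 6489 bases for Ctsl and 2675 for Lamp1, so the order between genes depends on it. Without division by length, mean CPM in control was 655 for Ctsl and 483 for Lamp1. In control the order began with Lamp1 at 180.5 CPM per kb, Gabarapl1 at 135, Ctsz at 103 and Ctsl at 101. In LPS it began with Ctsl at 409 CPM per kb, Lamp1 at 223 and Ctsz at 175. These are group means. By sample, Ctsl was at rank 3, 4, 6 and 3 of 47 in control and at rank 1 in each LPS sample, and Gabarapl1 was at rank 4, 2, 2 and 2 in control and 8, 9 and 7 in LPS. Lamp1 was at rank 1 in each control sample and at rank 2 in each LPS sample. The differences between neighbours in this order were not tested.

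Other genes of the pathway, on lists of 144 genes of which 136 were tested, had 31 called higher and 10 called lower, with a median log2 fold change of 0.16. As shares these are 22.8% and 7.35%, beside 13.3% and 13% of all genes tested. With total counts in place of TMM factors, 19 were called higher and 13 lower. Calls higher were 19 without LPS 2 and 20 without LPS 3. Calls lower were 2 without LPS 2, 1 without LPS 3, 4 without control 2 and 6 without control 4.

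The 38 other autophagy genes had 6 called higher and 4 lower, with a median log2 fold change of 0.07. Over the fits with 1 sample left out, 3 (without LPS 2) to 7 were called higher and 0 (without LPS 3) to 4 lower. Ncoa4, the receptor for ferritin, was at 19.9, 17.7, 43.3 and 42.7 CPM in control and 92.8, 113 and 119 CPM in LPS and rose by 1.81 (SE 0.29, adjusted p = 0.000517, edgeR's quasi-likelihood test). No samples overlapped, and controls 1 and 2 were the lowest. Vmp1, which acts in membrane growth, rose by 0.86, a call lost without LPS 2 (0.86) or LPS 3 (0.79). Rab7, which acts in fusion with lysosomes, was at 188, 187, 219 and 198 CPM in control and 381, 349.7 and 339.8 CPM in LPS and rose by 0.85, without overlap. Of the 4 called lower, the 3 with the largest change were Atg101 of the ULK complex, the fusion protein gene Stx17 and the receptor gene Calcoco1, which fell by 0.65, 0.62 and 0.56. Wdr45, named after its values were seen, was the other, at 25.8, 26.9, 21.4 and 29.4 CPM in control and 16.7, 19.2 and 19.2 CPM in LPS, and fell by 0.50. Its call was lost without LPS 1 (-0.43), LPS 2 (-0.53), LPS 3 (-0.53), control 2 (-0.49) or control 4 (-0.44). Stx17 was no longer called without LPS 3 (-0.53), and Calcoco1 without LPS 2 (-0.51) or LPS 3 (-0.52). Atg101 overlapped between groups and was called only in the fit without control 3 among the 7 with a sample left out, at -0.82, and its log2 fold change without LPS 1, LPS 2, LPS 3, control 1, control 2 or control 4 was -0.56, -0.71, -0.67, -0.68, -0.48 or -0.65.

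Of 36 other hydrolases and cofactors tested, 12 were called higher (8 without LPS 2, LPS 3 or control 4) and 2 lower (1 without LPS 2, LPS 3, control 2, control 3 or control 4, and 4 without control 1), with a median log2 fold change of 0.37. Ctss, cathepsin S of antigen-presenting cells, was at 22.7, 20.9, 25.6 and 12.6 CPM in control and 76.6, 42.3 and 43.5 CPM in LPS and rose by 1.41 (SE 0.25, adjusted p = 0.00126, edgeR's quasi-likelihood test). LPS 1 was the highest sample. Ifi30, a thiol reductase, and Gla, an alpha-galactosidase, rose by 1.16 and 1.05. Ifi30 was not called without LPS 1, at 0.69. Gm2a, the activator of ganglioside breakdown, was at 88.9, 89.3, 109 and 117 CPM in control and 40.6, 45.5 and 46.3 CPM in LPS and fell by 1.20 (SE 0.15, adjusted p = 8.97e-05, edgeR's quasi-likelihood test). Its LPS samples all lay below control. Lipa, the acid lipase, overlapped between groups and fell by 0.61, and was called only without control 1 (-0.77) among the fits with a sample left out. Its log2 fold change was -0.52, -0.64, -0.66, -0.66, -0.51 and -0.53 without LPS 1, LPS 2, LPS 3, control 2, control 3 and control 4.

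Other lysosomal membrane genes had 6 called higher (4 without LPS 2 or LPS 3) and 1 lower of 19 tested, with a median log2 fold change of -0.04. Cd68, a glycoprotein of macrophage lysosomes, was at 2.62, 1.58, 3.36 and 2.9 CPM in control and 21, 8.62 and 7.15 CPM in LPS and rose by 2.23 (SE 0.38, adjusted p = 0.000815, edgeR's quasi-likelihood test). LPS 1 was again the highest, and without it the log2 fold change was 1.59, still called. Slc11a1 and Laptm5, also of blood cell lysosomes, rose by 2.18 and 1.37, and the sialic acid transporter Slc17a5 fell by 0.57. The Slc17a5 call was lost without LPS 2 (-0.56), LPS 3 (-0.49) or control 3 (-0.43).

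Of 15 other proton pump genes tested, 5 were called higher and 0 lower by edgeR's quasi-likelihood test, with a median log2 fold change of 0.42. The calls higher were 2 without LPS 1, LPS 2, LPS 3 or control 2, and 1 with total counts in place of TMM factors. Atp6v0e, a subunit of the membrane part, was at 19.6, 22.6, 19.8 and 18 CPM in control and 33.3, 33.7 and 35.8 CPM in LPS and rose by 0.78. The accessory subunit genes Atp6ap2 and Atp6ap1 rose by 0.56 and 0.53. The Atp6ap1 call was lost without LPS 1 (0.50), LPS 2 (0.56), LPS 3 (0.56) or control 2 (0.49). Lamp3 and Atp6v1b1 had 0 counts in all 7 samples.

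The regulators of mTORC1, AMPK and the TFEB family had 2 called higher and 3 lower (5 lower with total counts) of 28 tested, with a median log2 fold change of -0.17. Ddit4, an inhibitor of mTORC1, was at 3.82, 5.67, 1.16 and 11.1 CPM in control and 35.4, 38.6 and 35.9 CPM in LPS and rose by 2.73 (SE 0.45, adjusted p = 0.00069, edgeR's quasi-likelihood test). The control samples varied widely, and all were below LPS. Without control 4 its log2 fold change was 3.36. Foxo1, a transcription factor restrained by insulin, rose by 0.99. Zkscan3, described as a repressor of autophagy genes, Flcn and Mtor fell by 0.57, 0.57 and 0.42, with LPS below control in all samples. Without LPS 2, LPS 3 or control 2, 0 of the 3 were called, at -0.48, -0.51 and -0.60 for Zkscan3, -0.48, -0.53 and -0.56 for Flcn and -0.38, -0.42 and -0.43 for Mtor. Zkscan3 was also lost without control 1 (-0.40), Flcn without control 3 (-0.48), and Mtor without LPS 1 (-0.44), control 3 (-0.41) or control 4 (-0.39).

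Marker genes of liver cell types were read in the same samples. In whole liver, fewer cells of a type and less RNA per cell cannot be told apart. The 10 hepatocyte markers summed to 82173, 87036, 116985 and 99743 CPM in control and 86971, 106168 and 107711 CPM in LPS, with 2 called higher and 3 lower. All 10 were present in every sample. Alb, with the highest mean CPM of the list over the 7 samples, was at 37916, 37734, 61619 and 50434 CPM in control and 24614, 24631 and 24665 CPM in LPS and was among the 3 called lower. Without LPS 2 or LPS 3 only 1 hepatocyte marker was called lower, and Alb was not called, at -0.93 and -0.93. In LPS 2 and LPS 3, Fgb (19953, 28427 and 29132 CPM in LPS 1 to 3) and Trf (20884, 27305 and 27692 CPM) were above it.

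The 15 Kupffer cell and macrophage markers summed to 210.1, 296, 262 and 185 CPM in control and 834, 250.3 and 254 CPM in LPS, with 7 called higher and 2 lower. For the sum, LPS 1 stood far above LPS 2 and LPS 3, which were inside the control range, but the genes of the list went in opposite directions. The 7 called higher were Marco, Adgre1, C1qa, C1qb, Fcgr1, Lyz2 and Ly6c2, and without LPS 1 the list had 5 called higher and 5 lower. Adgre1, which encodes the macrophage marker F4/80, was at 2.33, 4.92, 4.76 and 4.25 CPM in control and 18.7, 8.62 and 10.1 CPM in LPS. C1qa and C1qb were not called without LPS 1 (0.40 and 0.58), and C1qa also not without LPS 3 (1.00), control 1 (0.85) or control 4 (0.72). Marco, for which DESeq2 gave no adjusted p-value, had the highest mean CPM over the 7 samples only through LPS 1, at 2.47, 5.55, 4.33 and 2.37 CPM in control and 409, 66.4 and 65.5 CPM in LPS. The genes called lower were Clec4f, at 47.4, 69.8, 56.9 and 43.4 CPM in control and 24.1, 5.47 and 7.28 CPM in LPS, and Mrc1, at 28.1, 47.6, 29 and 35 CPM in control and 15.4, 13.8 and 10.2 CPM in LPS. Timd4 was at 4.52, 4.54, 5.25 and 1.98 CPM in control and 12.8, 0.0644 and 0.622 CPM in LPS and was not called. Marco aside, these genes, like Fgb and Trf, are named after their values were seen.

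Summed neutrophil markers were near 0 in control and higher in LPS. The 12 genes summed to 5.23, 4.54, 2.01 and 2.95 CPM in control and 216, 159.7 and 159.9 CPM in LPS. Of the 12, 8 passed the filter on low counts, most of them only through their level in LPS, and all 8 were called higher. S100a9, with the highest CPM of the list in every LPS sample, was at 2.05, 1.26, 0.61 and 0.773 CPM in control and 103, 73.5 and 72.3 CPM in LPS. Ly6g, Mpo and Ngp had 0 counts in every control sample. In LPS, Ngp was at 14.4, 14.9 and 17 CPM, but Ly6g was at 0.322, 0 and 0.0622 CPM and Mpo at 0, 0.0644 and 0 CPM. Camp and Elane, named after their values were seen, were not tested. Camp was at 0.0707, 0, 0.122 and 0 CPM in control and 0.322, 0.0644 and 0.187 CPM in LPS. Elane was at 0, 0.504, 0.366 and 0 CPM in control and 0.138, 0.129 and 0.373 CPM in LPS. Cd63, Lgmn, Ctss and Cd68 were highest in LPS 1, the sample with the highest macrophage and neutrophil sums, whereas Ctsl and Map1lc3b were lowest there among LPS samples. Of the other called hydrolases, Ctsc and Ctsz were highest in LPS 1, and Gusb and Psap were not. Among LPS samples, Bnip3, Ctsa, Ctsb, Hexa and Tfeb, not called, and Atg3, called lower, were also highest in LPS 1. The part of macrophages and neutrophils in the results on Cd63, Lgmn, Ctsc and the other called hydrolases was not tested. Without LPS 1, the log2 fold changes were 1.9 for Cd63, 1.08 for Lgmn, 1.05 for Ctsc and 2.19 for Ctsl, and all 4 were still called.

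The 8 sinusoidal endothelium markers summed to 134, 166, 100.5 and 136 CPM in control and 175, 98.5 and 95.5 CPM in LPS, with 2 called higher and 2 lower, the calls lower being 1 without LPS 2, LPS 3, control 2 or control 4. Stab2, with the highest mean CPM of the list over the 7 samples but not in either group alone, was at 29.4, 32, 16.2 and 23.4 CPM in control and 22.9, 14.6 and 14.3 CPM in LPS. It was not called. The calls, named after their values were seen, were Pecam1 and Lyve1 higher (log2 fold changes of 1.28 and 1.76) and Clec4g and Kdr lower (-4.43 and -0.97). The 5 stellate cell markers, led in CPM by Dcn, summed to 319, 244, 148 and 247 CPM in control and 189, 156 and 147 CPM in LPS, with 3 called lower, and 2 without LPS 1, LPS 2 or control 4. Dcn was not called, with a log2 fold change of -0.16. The 3 called, named after their values were seen, were Reln, Colec11 and Lrat, at -2.32, -2.20 and -1.33. The 4 cholangiocyte markers, led in CPM by Sox9, summed to 28.6, 11.4, 7.94 and 16.4 CPM in control and 20.6, 30.4 and 26.3 CPM in LPS, with 1 called higher. That call was Sox9, whereas Krt19, Krt7 and Epcam, named after their values were seen, had log2 fold changes of -1.14, -0.64 and -0.34 and were not called. Hemoglobin genes of red blood cells, led in CPM by Hbb-bs, summed to 241, 121, 152 and 100.4 CPM in control and 112, 23.1 and 26.9 CPM in LPS, with 3 of 4 called lower. Of these, 0 were called without LPS 2 or LPS 3 and with LPS 2 and LPS 3 summed, and 1 was called without control 1, control 2 or control 3 and by DESeq2. Some of these are near-identical copies, so counts between them are uncertain. The 8 T and NK cell markers summed to 4.24, 4.48, 4.09 and 3.04 CPM in control and 2.85, 2.19 and 2.67 CPM in LPS, and 1 of them, Cd4, passed the filter on low counts, only through its level in control, and was called lower. Klrb1c, named after its values were seen and not tested, was at 0.0707, 0.315, 0 and 0.435 CPM in control and 1.29, 0.515 and 0.871 CPM in LPS. The part of these cell types in the results on the members was not tested.

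**Figure D3:**
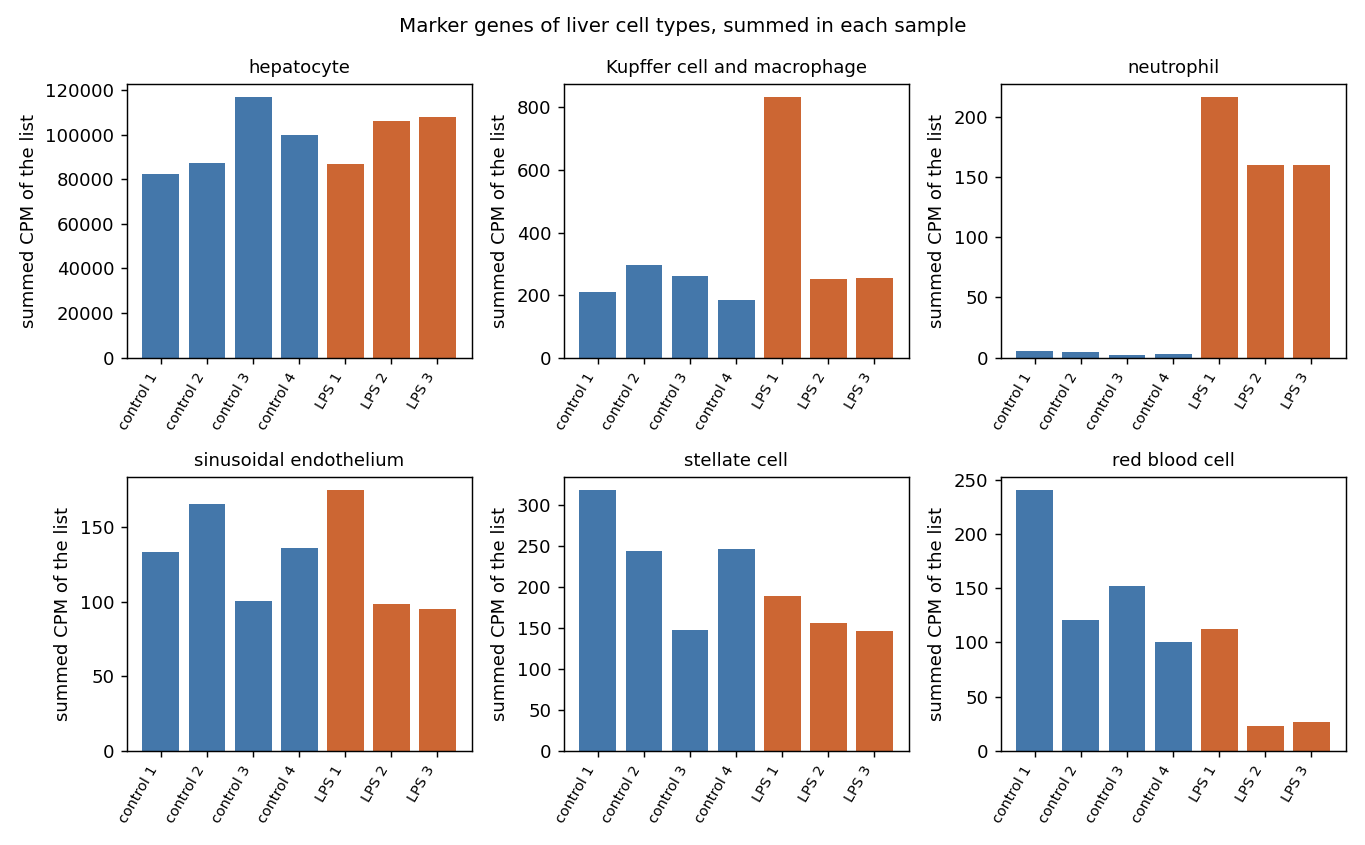
Summed CPM (y axis, from 0) of 6 marker lists in each control (blue bars) and LPS (orange bars) sample. Neutrophil genes are near 0 in control and at 216, 159.7 and 159.9 in LPS 1 to 3, and macrophage genes are highest in LPS 1.

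Promoter letters were searched because TFEB and its relatives bind the E-box CACGTG. Windows of 250 bases before to 50 bases after the start came from RefSeq (GRCm38.p6, a different build from that of the counts) and were found by symbol for 36 of the 47 members, in 43 windows. For 33 of the 43, the 30 bases after the start were found in a GENCODE M21 transcript of the gene, so the start of the other 10 was not matched. CACGTG, which reads the same on both strands, was in 14 of 36 members (38.9%), beside 11.6% of 10218 tested genes with a window. The longer TCACGTG, searched on both strands and contained in some of the same matches, was in 11 members (30.6%), beside 7.01% of those genes. By role, CACGTG was in 5 of 10 hydrolase genes, 3 of 7 conjugation genes, 2 of 4 membrane genes, 2 of 2 pump genes, 1 of 6 initiation genes, 1 of 5 cargo genes and 0 of 2 TFEB factors. A match describes letters in a window and is not a binding site. Genes with E-boxes included called members that rose (Ctsl, and Lgmn in 1 of its 2 windows), called members that fell (Atg3, Atg7) and members that were not called (Lamp1, Mcoln1, Ctsd). The windows of the called members Atg13, Map1lc3b, Gabarap, Cd63, Ctsc, Ctsz, Gusb and Psap, which rose, held no CACGTG. Neither did those of Gabarapl1 and Ulk2, which were called lower. Ctsl did not hold the longer TCACGTG.

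The stretches before the start that hold these letters are shown for genes of each kind, with CACGTG in capitals, 5′ to 3′ on the gene's strand. In GRCm38.p6 they lie at chr8:13159080-13159160 (+ strand) for Lamp1, chr8:3500428-3500499 (+ strand) for Mcoln1, chr16:45158715-45158783 (+ strand) for Atg3 and chr13:64370731-64370770 (- strand) for Ctsl, all upstream of the start that the table gives. Lamp1 holds 4 E-boxes, Mcoln1 and Atg3 hold 2 each, and Ctsl holds 1.
Lamp1: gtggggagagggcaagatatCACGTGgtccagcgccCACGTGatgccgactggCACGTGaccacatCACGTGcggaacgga
Mcoln1: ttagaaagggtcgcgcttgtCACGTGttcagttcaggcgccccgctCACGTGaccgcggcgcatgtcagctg
Atg3: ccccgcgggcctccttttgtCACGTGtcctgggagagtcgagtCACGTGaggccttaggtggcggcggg
Ctsl: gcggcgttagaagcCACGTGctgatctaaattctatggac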

How the data were processed

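Liver poly(A) RNA of 7 samples was used as the counts that the authors deposited, without normalization, covering 56691 genes. The submitters' processing notes name cutadapt 1.9.1, HISAT2 2.2.1, HTSeq 0.6.1, DESeq2 1.34.0 and GRCm39. The counting mode, strand setting, handling of reads with several matches and annotation release are not given in the sources used here. Samples were grouped by their treatment label.

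Counts were tested with edgeR 4.0.16 in R 4.3.3 (filterByExpr, TMM, quasi-likelihood F test, no covariate), and p-values were adjusted by the Benjamini-Hochberg method over 13683 genes. Standard errors were computed as the log2 fold change divided by the root of F. The fit was run on simulated counts with known changes, drawn independently with the same dispersion for every gene. These do not hold the unequal likeness of the real replicate pairs, so they give no error rate for these data. DESeq2 1.42.0, other scalings and filters, a replicate block, a sum of LPS 2 and LPS 3, and each sample left out were run as alternatives. Exon lengths came from GENCODE M21 by gene ID, as the union of all exons of a gene.

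The genes named were always Tfeb, Tfe3, Sqstm1, Map1lc3b, Lamp1, Ctsb, Ctsd and Ctsl; in each role group, called members past 1 on the log2 scale, the 2 rises and 2 falls of smallest p among other called members, or the smallest p where none was called; in each list of other pathway genes, the 3 called rises and 3 called falls of largest change whose mean reached 5 CPM; and the marker of highest mean CPM over all samples for each cell type described, with defining markers at 0. Members outside this rule are given, with values seen, to account for all 47. The members and lists were chosen with earlier results of these data known.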

Additional observations from a re-analysis of the deposited data

Results flagged for a closer look

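Of 70 genes checked, 2 had 1 control sample far from the other 3 on the log2 CPM scale. Pik3c3 was at 14.9, 14.9, 19 and 15.1 CPM in control, with control 3 apart (a gap of 0.931 of the group's range). Map1lc3a was at 23, 29.4, 23.7 and 23.3 CPM in control, with control 2 apart (a gap of 0.888). Chance gives about 1 such group in 20. The LPS group of 3 was not checked in this way.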

How the results depend on the processing

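Of 17 member calls, 10 were kept in the same direction in all 16 fits run beside the one reported, which changed the tool, the scaling, the filter, the block or the samples. Of 1119 gene values recomputed, 1003 kept their direction and side of the threshold, 87 lost the call, 9 gained one and 20 changed sign. None of the sign changes was in a called gene. RLE factors, leaving out genes over 1% of counts and leaving out mitochondrial genes kept all 17 member calls.

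At an adjusted p below 0.01, 1091 genes were higher and 993 lower, and 2 members were lower. Initiation then had 0 higher and 0 lower, conjugation 2 lower, and other genes of the pathway 18 higher and 1 lower. With at least 10 counts in every sample, 11307 genes were tested and 693 were higher past 1 on the log2 scale. With no filter, 1 cargo receptor gene and 2 proton pump genes were higher. With total counts and no scaling factors, initiation had 0 higher and other genes of the pathway 19 higher. With LPS 2 and LPS 3 summed, 3 members were lower, initiation had 0 higher and 0 lower, and other genes of the pathway 20 higher and 2 lower. With the replicate number as a block, 0 members were lower past 1, 2 proton pump genes were higher and 5 other genes of the pathway were lower. Samples of the same number had correlations of 0.18, -0.06 and 0.07, against -0.14 to 0.097 for the 9 other pairs, so whether the numbers pair mice was not settled.

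With 1 sample left out, genes lower ranged from 1146 to 1868, members lower from 3 to 5 and members lower past 1 from 0 to 1. Initiation ranged from 0 to 2 higher and 0 to 1 lower, conjugation from 2 to 4 lower, the proton pump from 1 to 2 higher, and other genes of the pathway from 19 to 35 higher and 1 to 12 lower.

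The sign changes, on the log2 scale, were with total counts Becn1 (-0.0538), Bnip3l (-0.0185) and Hexa (-0.076), and with the block Atg9a (0.41), Wipi1 (0.0038) and Ctsh (0.0285). With 1 sample left out, the ranges were -0.28 to 0.31 for Atg9a, -0.22 to 0.13 for Wipi1, -0.22 to 0.0273 for Tfeb, -0.13 to 0.0144 for Lamp2, -0.25 to 0.0168 for Ctsh and -0.15 to 0.14 for Hexa. The cause was not tested for any of these changes.

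A floor of 3 counts stood at 0.138 to 0.212 CPM per sample, so markers below it are near the limit of detection. With 3 LPS samples, 2 of them very alike, calls that change when 1 sample is left out rest on few samples. Counts of RNA show neither protein, nor enzyme activity, nor flux through autophagy.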
